A study of Mus musculus with 4 samples.

Results

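The collagen chains are the genes whose symbols are Col, a type number, the letter a and a chain number, and 44 of the 23420 gene rows met that rule. Of these, 11 encode fibrillar chains, 8 encode chains of basement membranes, and 25 encode minor collagens, among them 6 of type VI and 9 that attach to fibrils. The samples were 4 polyadenylated RNA libraries from hearts of wild-type C57BL/6J mice, labelled male and 12 weeks old. They form 1 group with no treatment and no control, so levels are compared between chains and between libraries. The labels call the tissue whole heart, while the protocol describes frozen ventricular apexes. Nothing in the labels says whether each library came from its own animal, so every p-value measures only the spread between these 4 libraries, which may be technical in part.

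Each library held between 10523709 and 15359296 gene counts, and levels are given as CPM, counts scaled to 1000000 gene counts. A library's floor of 3 counts corresponded to between 0.195 and 0.285 CPM. Intervals and floors cover counting error only. The ribosomal RNA gene Rn45s took from 11.9% to 14.1% of the counts. Libraries 2 and 3 went against their male label. Xist, which silences one X chromosome in female cells, had 5, 1897, 1806 and 19 counts in libraries 1 to 4, and the Y-linked Ddx3y had 341, 0, 1 and 437. Results that rest on libraries 2 and 3 are therefore also given for libraries 1 and 4 alone. By the same counts, libraries 1 and 4 did not come from the same animal as libraries 2 and 3. Whether libraries 1 and 4 came from different animals, or libraries 2 and 3 did, is not known. All 5 cardiomyocyte markers (Myh6, Tnnt2, Actc1, Myl2 and Tnni3) were present, with a sum between 78784 and 89594 CPM. Of the atrial markers, Nppa had between 131 and 151 CPM, Myl4 averaged 2.93 CPM, and Myl7 and Sln had at most 7 and 3 counts in a library.

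A collagen molecule is made of chains wound into a triple helix, and the types differ in which chains they combine and in what they build. Fibrillar collagens line up into the cables that bear load between the muscle cells of the heart, and in that organ they come mostly from fibroblasts. Type IV collagen forms the sheet-like network of basement membranes, which surround every cardiomyocyte and underlie the endothelium of every vessel. Type VI forms beaded filaments close to cells, and the fibril-associated collagens sit on the surface of fibrils.

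The 44 chains together had 3044, 3173, 2794 and 2978 CPM in libraries 1 to 4, a mean of 2997 ± 158 CPM (SD, n = 4), or 0.300% of all gene counts. By counts, 27 chains averaged at least 1 CPM, 19 at least 10 CPM and 8 at least 100 CPM. All 8 basement membrane chains reached 1 CPM, against 8 of the 11 fibrillar and 11 of the 25 minor chains. The 10 chains of highest mean CPM held 90.8 ± 0.250% of collagen counts. A further 17 chains had a mean below 1 CPM, and 39 of the 44 had a count in every library.

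Basement membrane chains gave the largest class sum by counts. They had 1778, 1775, 1611 and 1754 CPM in libraries 1 to 4, or 57.7 ± 1.29% of collagen counts. Fibrillar chains had 793, 886, 674 and 765 CPM in libraries 1 to 4, or 26.0 ± 1.57%. Minor chains had 472, 511, 509 and 459 CPM, or 16.3 ± 1.30%. The 3 ranges did not overlap. A long transcript yields more fragments than a short one, so levels are compared between genes per kilobase (kb) of the longest protein-coding transcript. That length was chosen after the data were seen. The planned length was that of all annotated exons of a gene merged, and some orders of chains differ between the 2 scales. Per kb of longest transcript, basement membrane chains held 54.4 ± 1.11%, fibrillar chains 26.5 ± 1.71% and minor chains 19.1 ± 1.46% of the collagen total. Per kb of merged exon the shares were 60.5%, 21.3% and 18.2%. Summed per kb of longest transcript, basement membrane over fibrillar chains gave ratios of 2.06, 1.84, 2.21 and 2.11 in libraries 1 to 4.

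**Figure D1:**
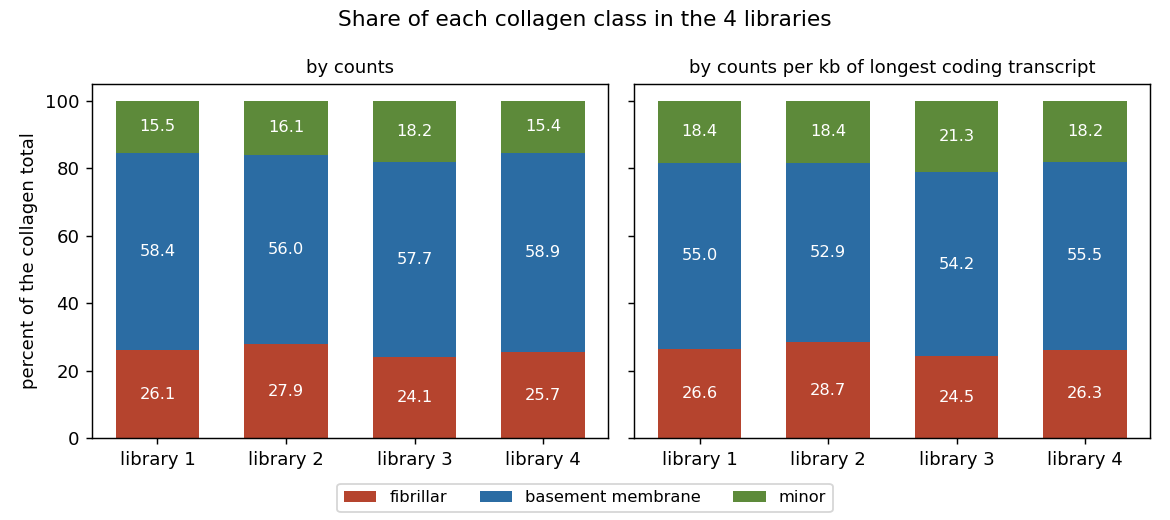
Stacked bars give the percent of the collagen total in each of the 4 libraries for fibrillar, basement membrane and minor chains, by counts on the left and by counts per kb of longest coding transcript on the right. Basement membrane chains took between 56.0% and 58.9% of counts, and between 52.9% and 55.5% on the per kb scale.

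Among basement membrane chains, Col4a1 and Col4a2 encode the chains of the common type IV network. Col4a1 had 853, 849, 760.2 and 855 CPM in libraries 1 to 4. Col4a2 had 700.3, 656, 616 and 669 CPM. Both chains were lowest in library 3, and their coefficients of variation (CV, the SD as a percent of the mean) were 5.57% and 5.32%. The pair held 49.7 ± 1.76% of all collagen counts, and 45.9 ± 1.68% of the collagen total per kb of longest transcript. Both levels per kb, 125 ± 6.99 CPM for Col4a1 and 102 ± 5.44 CPM for Col4a2, stood above those of all other chains. Col4a1 (chr8:11198423-11312826, minus strand) and Col4a2 (chr8:11312805-11449287, plus strand) are transcribed away from each other, and their first exons overlap by 22 bases in the GENCODE M21 annotation of GRCm38. Per kb of longest transcript, Col4a1 over Col4a2 gave ratios of 1.19, 1.26, 1.20 and 1.25 in libraries 1 to 4. Col4a1 was thus the higher partner in every library. The libraries do not keep strand, but only 0.295% of the exon bases of Col4a1 and 0.982% of those of Col4a2 are shared with other genes.

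For 16 pairs of partner or neighbouring chains the ratio within each library was tested against equal levels by an exact two-sided sign-flip permutation test. With 4 libraries this test cannot give a p below 0.13 (1 in 8), so no pair could pass 0.05. The smallest possible p was reached by 15 of the 16 pairs on counts, at 0.133 after Benjamini-Hochberg adjustment over the 16, and by all 16 per kb of longest transcript. Per kb of merged exon, Col3a1 over Col1a1 (permutation p = 0.375) and Col5a3 over Col5a2 (permutation p = 0.25) did not reach the smallest p. The ratios are therefore read from how many libraries show 1 direction and from their spread.

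The other type IV chains also lie as neighbours transcribed in opposite directions, but their partners were less even than Col4a1 and Col4a2. Col4a5, which is mutated in X-linked Alport syndrome, had 57.9, 55.8, 56.3 and 62.4 CPM in libraries 1 to 4. Its X-linked neighbour Col4a6, a chain of a restricted set of basement membranes, had 2.91, 3.59, 3.71 and 2.15 CPM. Col4a5 varied little, with a CV of 5.21%, while Col4a6 was lowest in library 4. Per kb of longest transcript, Col4a5 over Col4a6 gave ratios of 20.0, 15.7, 15.3 and 29.1, with a mean log2 count ratio of 4.25 ± 0.43 (SD, n = 4). The lower 2 of these ratios are those of libraries 2 and 3, and libraries 1 and 4 alone gave the higher 2. Col4a5 stood at 0.0709 of the level of Col4a1 per kb of longest transcript.

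The start sites of Col4a5 (chrX:141475385-141689234, plus strand) and Col4a6 (chrX:141165403-141474076, minus strand) lie 1309 bases apart. The bases upstream of both are printed because the neighbours share this interval and differ most in level of the type IV pairs. They are RefSeq promoter sequences of GRCm38.p6, each on its gene's own strand and trimmed to bases outside annotated exons. Capitals mark matches, on either strand, to the GC box motif spelled GGGCGG, the CCAAT box motif of those 5 letters, or the TATA box motif spelled TATAAA. No matches overlapped. The windows are chrX:141475169-141475384 for Col4a5 and chrX:141474077-141474326 for Col4a6.
Col4a5: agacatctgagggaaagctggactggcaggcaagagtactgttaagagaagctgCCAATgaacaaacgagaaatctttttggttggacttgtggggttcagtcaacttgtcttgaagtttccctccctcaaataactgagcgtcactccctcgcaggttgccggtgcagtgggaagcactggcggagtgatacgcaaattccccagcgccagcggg
Col4a6: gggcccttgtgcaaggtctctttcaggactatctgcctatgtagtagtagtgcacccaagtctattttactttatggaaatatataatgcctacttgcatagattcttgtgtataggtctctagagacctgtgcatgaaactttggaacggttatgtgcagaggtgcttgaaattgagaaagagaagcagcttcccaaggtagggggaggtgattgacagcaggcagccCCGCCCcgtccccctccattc
The Col4a5 window of 216 bases, with a GC content of 52.3%, held 1 CCAAT match and no other match. Of 32851 RefSeq promoters read over the same length, 30.5% held that motif. The Col4a6 window of 250 bases, with a GC content of 47.6%, held 1 GC box match, as did 32.7% of promoters over that length.

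Col4a4 and Col4a3, best known from the glomerular basement membrane of the kidney, were low in these libraries. Col4a4 had 14.2, 15.0, 11.4 and 14.5 CPM in libraries 1 to 4. Col4a3 had 5.48, 8.26, 5.80 and 7.16 CPM. The ranges did not overlap, and Col4a3 over Col4a4 per kb of longest transcript gave 0.457, 0.651, 0.603 and 0.584. Their start sites on chromosome 1 lie 72 bases apart. Of the exon bases of Col4a3, 5.65% are shared with another gene, the highest share among chains of at least 1 CPM. Reads there could have been set aside as ambiguous and counted for neither gene. The closing row of ambiguous reads held between 0.812% and 0.830% of listed reads.

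Col15a1 and Col18a1 encode the multiplexins, basement membrane proteoglycans whose released ends restrain vessel growth in cell culture and in mice. Col15a1 (chr4:47208161-47313167) had 125.2, 166, 141 and 125.5 CPM in libraries 1 to 4. Col18a1 (chr10:77052178-77166548) had 19.3, 21.5, 17.1 and 17.8 CPM. Both were highest in library 2. Col15a1 exceeded Col18a1 in every library, with ratios per kb of longest transcript of 7.01, 8.35, 8.90 and 7.60. The upstream bases of Col15a1 are shown because it was the most abundant basement membrane chain outside type IV on the per kb scale. They lie at chr4:47207762-47208011 on the plus strand of GRCm38.p6, from RefSeq.
Col15a1: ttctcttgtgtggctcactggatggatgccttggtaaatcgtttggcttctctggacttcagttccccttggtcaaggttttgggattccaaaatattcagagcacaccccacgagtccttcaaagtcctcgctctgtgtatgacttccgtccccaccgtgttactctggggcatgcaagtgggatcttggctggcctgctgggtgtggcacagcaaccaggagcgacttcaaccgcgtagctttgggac
This window had a GC content of 53.6%, near the median of 52.4% over promoters of that length, and held none of the 3 motifs.

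Among fibrillar chains, Col1a1 and Col1a2 encode the chains of type I collagen, the main load-bearing fibril. Col1a1 (chr11:94936224-94953042) had 175, 189, 149 and 156 CPM in libraries 1 to 4. Col1a2 (chr6:4504814-4541544) had 176, 189, 155 and 175 CPM. Type I collagen contains more of the first chain than of the second, but their transcripts had nearly equal counts, with a mean log2 ratio of Col1a1 over Col1a2 of -0.06 ± 0.08 (SD, n = 4, exact permutation p = 0.25). Per kb of longest transcript the same ratio was 0.894, 0.902, 0.867 and 0.804, below 1 in every library. The direction turned when all annotated exons of a gene were merged. Col1a2 then has 12426 bases, against 5348 in its longest coding transcript, and the mean log2 ratio per kb of merged exon was 0.86. Which of the 2 chains is higher per length thus depends on the gene model.

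Col3a1 encodes type III collagen, which is abundant in elastic tissues such as vessel walls and mixes with type I in cardiac fibrils. It had 263, 325, 213 and 260.1 CPM in libraries 1 to 4, the widest range of the abundant fibrillar chains, with a CV of 17.4%. Library 2 was highest and library 3 lowest. Libraries 1 and 4 gave nearly the same level. Per kb of longest transcript, Col3a1 averaged 47.7 ± 8.28 CPM and Col1a1 28.2 ± 3.07 CPM, and Col3a1 was higher in every library. The difference was small per kb of merged exon, where the mean ratio was 1.05. Its upstream bases are shown as those of the most abundant fibrillar chain. They lie at chr1:45311288-45311537 on the plus strand of GRCm38.p6, ending at the base before the start of Col3a1 (chr1:45311538-45349706), from RefSeq.
Col3a1: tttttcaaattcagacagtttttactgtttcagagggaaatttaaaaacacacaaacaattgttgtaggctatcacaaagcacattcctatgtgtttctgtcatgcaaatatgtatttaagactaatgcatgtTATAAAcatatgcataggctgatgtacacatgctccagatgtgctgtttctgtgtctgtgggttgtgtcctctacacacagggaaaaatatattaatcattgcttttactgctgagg
The window had a GC content of 35.2%, against a median of 52.4% over promoters of that length. It held 1 TATA match, as did 12.4% of those promoters, and no GC or CCAAT box.

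Type V collagen enters the core of type I fibrils and limits their width, and its 3 chains were all measured. Col5a1 (chr2:27886425-28039514) had 97.4, 96.6, 80.2 and 92.8 CPM in libraries 1 to 4. Col5a2, the neighbour of Col3a1 on chromosome 1, had 39.6, 39.3, 38.5 and 38.1 CPM. Col5a3 had 33.0, 31.5, 24.8 and 33.5 CPM. Col5a1 and Col5a3 were lowest in library 3, whereas Col5a2 hardly varied, with a CV of 1.76%. The ratio of Col5a1 over Col5a2 averaged 1.85, and that of Col5a3 over Col5a2 averaged 0.850, per kb of longest transcript. The Col5a3 ratio turned to 1.11 per kb of merged exon, so the order of those 2 chains is not settled. Col3a1 over Col5a2, neighbours whose ends lie 24614 bases apart, averaged 8.04 per kb of longest transcript. Col11a1, a fibrillar chain of cartilage that resembles Col5a1, had 0, 3, 1 and 3 counts, at or under the floor in every library. The remaining fibrillar chains above 1 CPM were Col27a1, with a mean of 8.85 ± 2.16 CPM, and Col11a2, with 2.26 ± 0.779 CPM.

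**Figure D2:**
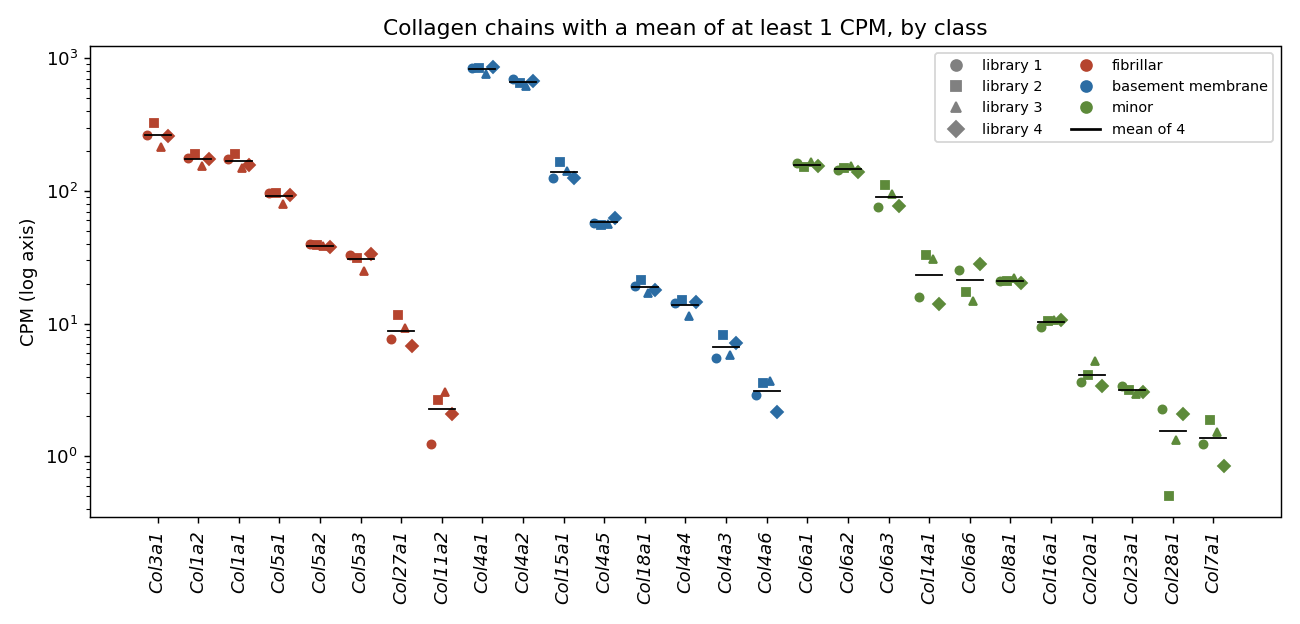
CPM of the 27 chains with a mean of at least 1 CPM is plotted on a log axis, with 1 point for each of the 4 libraries, coloured by class, and a bar at the mean. Col4a1 and Col4a2 stand above every other chain, and Col14a1, Col6a6 and Col28a1 show wide gaps between libraries.

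Type VI made up most of the minor class. Its 6 chains summed to 410, 430, 429 and 400 CPM in libraries 1 to 4, or 14.0 ± 0.938% of collagen counts, and the 19 other minor chains held 2.36 ± 0.413%. Col6a1 had 162, 153, 165 and 154 CPM in libraries 1 to 4. Col6a2 had 145, 149, 154 and 139 CPM. Col6a1 and Col6a2, neighbours on chromosome 10 that lie 85161 bases apart, varied little, with CVs of 3.68% and 4.26%. Col6a1 was higher in every library per kb of longest transcript, with ratios of 1.26, 1.17, 1.21 and 1.25.

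Col6a3, the large chain that completes the classical type VI molecule with these, behaved differently between libraries. It had 76.3, 111, 94.8 and 77.2 CPM in libraries 1 to 4, a CV of 18.6%. Libraries 2 and 3 were higher than libraries 1 and 4, which were close to each other. The ratio of Col6a3 over Col6a1 per kb of longest transcript was 0.192, 0.296, 0.234 and 0.204, so the transcript of the third chain stood below its partners in all 4.

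Col6a6 and Col6a5 encode later-found type VI chains related to Col6a3 and lie on chromosome 9. Col6a6 (chr9:105687809-105828160) had 25.5, 17.3, 14.7 and 28.0 CPM in libraries 1 to 4, from 367, 241, 155 and 430 counts. Col6a5 (chr9:105856078-105960643) had only 18, 1, 4 and 17 counts. Libraries 1 and 4 were the higher 2 for both chains, opposite to Col6a3. For Col6a5 the exact Poisson interval (95%) of library 1, 0.740 to 1.97 CPM, did not overlap that of library 2, 0.00182 to 0.400 CPM. Col6a6 over Col6a3 per kb of longest transcript gave 0.384, 0.179, 0.179 and 0.418. Col6a4 had 3 counts or fewer in each library.

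The fibril-associated collagens were led by Col14a1, which binds fibrils through decorin and regulates early fibril growth. Col14a1 (chr15:55307750-55520803) had 16.0, 33.1, 30.5 and 14.1 CPM in libraries 1 to 4, from 230, 461, 321 and 217 counts. Libraries 2 and 3 stood together above libraries 1 and 4, and the highest was 2.34 times the lowest. The 95% Poisson intervals were 13.96 to 18.2 and 12.3 to 16.1 CPM in libraries 1 and 4, against 30.2 to 36.3 and 27.3 to 34.0 CPM in libraries 2 and 3, so counting error does not span the gap. Col12a1, a related fibril-associated chain, had 18, 12, 11 and 8 counts. The ratio of Col14a1 over Col12a1 per kb of longest transcript was 22.2, 65.8, 49.8 and 45.6. Col16a1, another fibril-associated chain, had 9.51, 10.6, 10.6 and 10.7 CPM and varied little.

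Col8a1, a chain of the short-chain networks of vessel walls and endothelium, was among the steadiest members. It had 20.8, 20.98, 22.0 and 20.4 CPM in libraries 1 to 4, a CV of 3.05%. Its partner Col8a2 had 1, 9, 3 and 4 counts. Col8a1 was the higher of the 2 in every library, but with so few counts of the partner the ratio has no useful precision. The membrane-spanning collagens Col13a1, Col17a1, Col23a1 and Col25a1 summed to 5.06 ± 0.318 CPM, most of it from Col23a1 at 3.14 ± 0.193 CPM.

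Col28a1, a chain related to type VI, had the widest gap among chains above 1 CPM. It had 2.29, 0.503, 1.33 and 2.08 CPM in libraries 1 to 4, from 33, 7, 14 and 32 counts, and the highest was 4.55 times the lowest. The 95% Poisson intervals of library 1 (1.58 to 3.22 CPM) and library 2 (0.202 to 1.04 CPM) did not overlap. The upstream bases of Col28a1 are printed because this ratio of highest to lowest was the largest among chains above 1 CPM. Against the spread predicted for its level, Col14a1 varied more, with a variance ratio of 26.8 against 5.14 for Col28a1. The bases are from chr6:8192618-8192867 on the minus strand of GRCm38.p6, from RefSeq.
Col28a1: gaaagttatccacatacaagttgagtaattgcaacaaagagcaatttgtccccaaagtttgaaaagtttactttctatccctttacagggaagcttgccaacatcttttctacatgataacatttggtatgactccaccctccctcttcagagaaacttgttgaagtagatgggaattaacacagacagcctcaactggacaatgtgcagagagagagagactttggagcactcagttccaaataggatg
The window had a GC content of 40.4% and none of the 3 motifs.

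**Figure D3:**
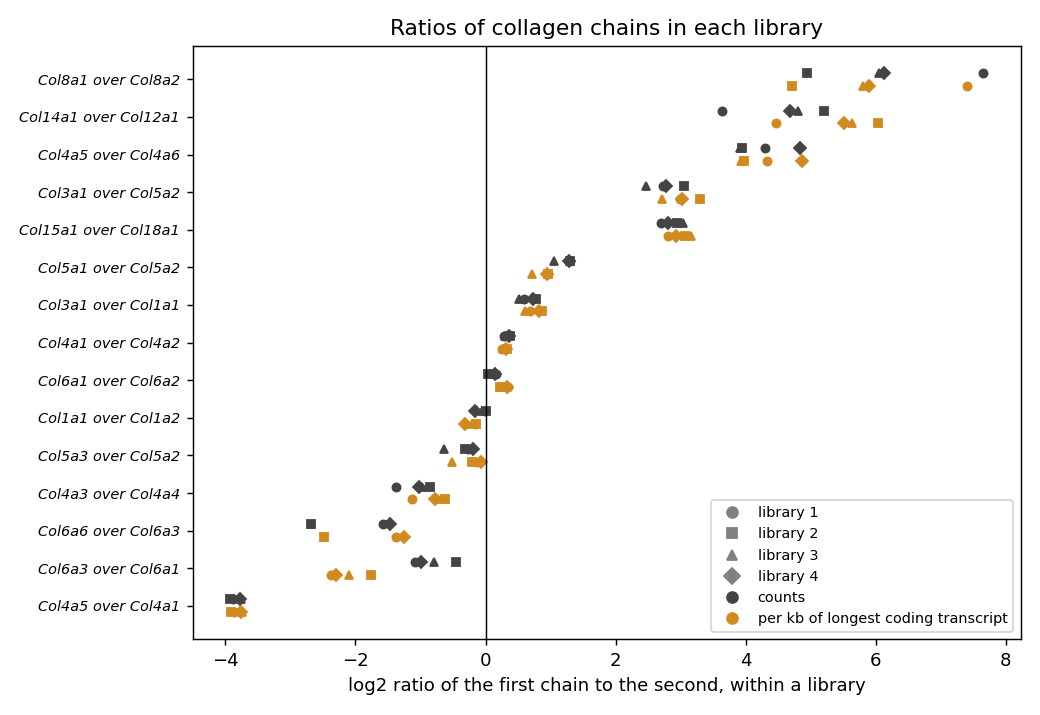
Each point is the log2 ratio of a pair of chains in 1 of 4 libraries, by counts (dark) and by counts per kb of longest coding transcript (orange). The pair of Col11a1 and Col5a1 is left out because Col11a1 has a library at 0 counts; all 4 points of Col4a1 over Col4a2 and of Col6a1 over Col6a2 lie right of 0.

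Several chains best known from cartilage and skin, picked after their values were seen, had few counts. Col11a2, of the same collagen type as the cartilage chain Col11a1, averaged 2.26 CPM. Col9a1 had 0 counts in all 4 libraries, and its exact Poisson upper limits (95%) ran from 0.240 to 0.351 CPM. Col2a1, the main fibrillar chain of cartilage, had 0, 1, 1 and 0 counts. Col10a1, a product of hypertrophic cartilage, had 8, 9, 10 and 6 counts, and Col17a1, a membrane collagen of skin, had 8, 8, 5 and 12. Col7a1, which anchors the epidermis of skin to the underlying dermis, averaged 1.37 CPM. The cartilage and valve markers Acan, Chad, Matn1, Sox9, Hapln1 and Chadl summed to 7.01, 6.39, 6.18 and 4.95 CPM, with 1 of 6 reaching 1 CPM and Matn1 at 0.

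The order of the 27 chains per kb of longest transcript began Col4a1, Col4a2, Col3a1, Col6a1, Col1a2, Col6a2, Col1a1, Col15a1, Col5a1 and Col6a3. Of the 26 adjacent pairs in this order, 11 kept their direction in all 4 libraries, and 7 of those did so per kb of merged exon too. For 15 pairs the mean log2 difference was no larger than its SD over libraries, among them Col3a1 with Col6a1, Col1a2 with Col6a2, Col6a2 with Col1a1, Col1a1 with Col15a1, and Col5a1 with Col6a3. Per kb of merged exon the order of Col3a1 with Col6a1, Col1a2 with Col6a2 and Col6a2 with Col1a1 was the opposite in all 4 libraries. The step between Col4a2 and Col3a1 held in every library on both scales.

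Spread between libraries was tested by an F test on edgeR's quasi-likelihood fit, against the trend of spread over all genes of like level. No collagen chain passed at an adjusted p of 0.05 (0 of 27 tested), against a background of 0.445% of all 12358 genes tested. At an unadjusted p of 0.05, 6 of 27 chains (22.2%) passed, against 6.00% of all genes. The chains were Col14a1, Col6a6, Col6a3, Col3a1, Col15a1 and Col28a1. Col14a1 came nearest, with an adjusted p of 0.0521 by edgeR, and Col6a6 followed at 0.259. The log2 ratio of each gene's variance to that predicted had a median of 0.68 over the 27 chains and of -0.23 over all genes. In libraries 1 and 4 alone no chain passed after adjustment, none of these 6 passed before it (1 other chain, Col1a1, did), and the adjusted p of Col14a1 was 0.984 by edgeR. That fit left out libraries 2 and 3, where Col14a1 was highest, and had fewer degrees of freedom. Only 6 of all 12345 genes passed in it after adjustment, so it cannot decide whether these chains spread more than other genes. Of the fits with 1 library left out, only that without library 2 called Col14a1, at an adjusted p of 0.0280 by edgeR. Without library 1, 3 or 4 its adjusted p was 0.0899, 0.0707 and 0.150.

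**Figure D4:**
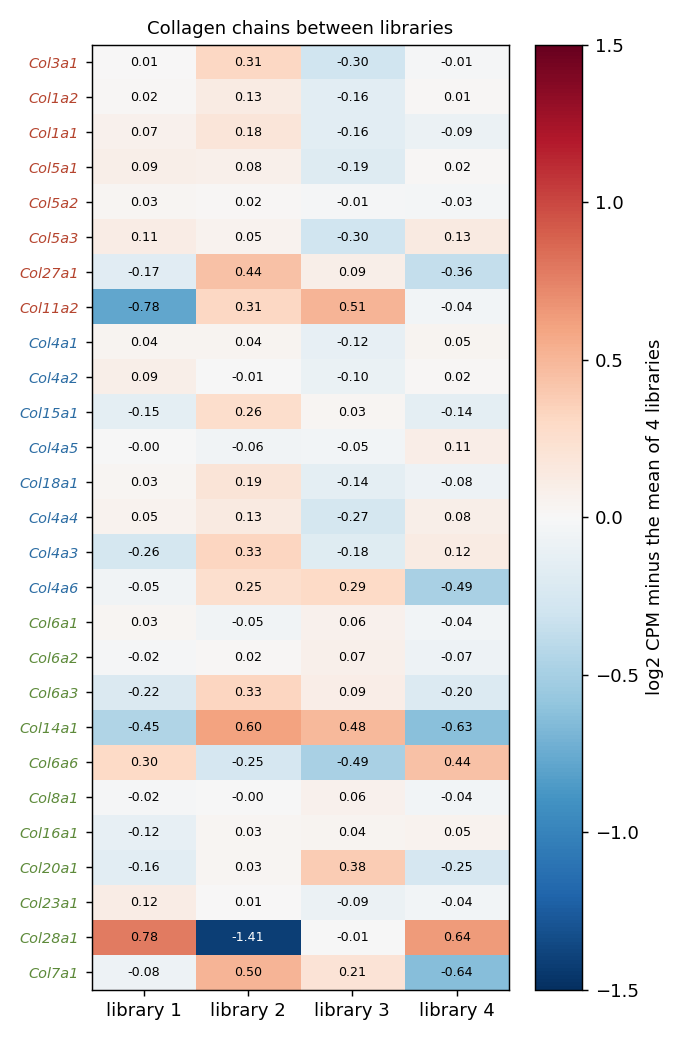
Each cell gives the log2 CPM of a chain in a library minus that chain's mean over the 4 libraries, for the 27 chains of at least 1 CPM, with names coloured by class. Col14a1 is above its mean in libraries 2 and 3 and below it in libraries 1 and 4, Col6a6 runs the other way, and Col28a1 is 1.41 below its mean in library 2.

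For 10 of the 27 chains (37.0%) the top 2 values were those of libraries 2 and 3, against 15.6% of the 12360 genes of at least 1 CPM. Libraries 1 and 4 held the top 2 values of 6 chains (22.2%), against 23.7% of all genes. Library 2 alone was highest for 11 chains (40.7%), against 28.5% of all genes. These are counts over genes of the same 4 libraries, and the part that the sex-linked transcripts, or any other property of libraries 2 and 3, have in them was not tested. The median CV was 11.8% over the 27 chains and 9.60% over all genes, and 11 chains (40.7%) had a CV under 10%, against 52.3% of all genes.

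In a bulk sample fewer cells of a type and less RNA per cell cannot be told apart. All 9 fibroblast markers (Pdgfra, Dcn, Lum, Tcf21, Gsn, Dpt, Mgp, Ddr2 and Pdgfrl) reached 1 CPM and summed to 2053, 2040, 2112 and 2017 CPM in libraries 1 to 4. Most of this sum was Gsn, which cells other than fibroblasts also express, with 1497 ± 37.9 CPM. Single markers moved more than the sum. Lum had 6.38, 9.99, 10.8 and 8.01 CPM and Mgp had 133, 163, 187 and 136 CPM, both highest in libraries 2 and 3 as Col14a1 was. Pdgfra, Tcf21, Gsn and Ddr2 were highest there too, with smaller gaps to the other libraries. Dcn, Dpt and Pdgfrl were not, and Dcn was lowest in library 2. Of all genes, 15.6% had their top 2 values in libraries 2 and 3. The part of these markers in the Col14a1 values was not tested. Markers of activated fibroblasts, of which 7 of 8 reached 1 CPM, summed to 362, 390, 402 and 375 CPM. Most of it was Acta2, with 229 ± 13.1 CPM, and Fn1, with 119 ± 9.92 CPM. Which cells the counts of these genes came from was not tested, so the sum does not show activated fibroblasts. Next in that list was Postn, with 18.4 ± 1.03 CPM. Lox had 4.30, 1.44, 2.66 and 4.62 CPM, and Cthrc1 had 1 count in library 1 and none elsewhere. Endothelial markers summed to between 1380 and 1412 CPM with 8 of 8 detected, and markers of pericytes and smooth muscle to between 1069 and 1198 CPM with 8 of 8. The largest part of the pericyte and smooth muscle sum was Abcc9, with 510 ± 19.1 CPM. Which cells its counts came from was not tested. Epicardial markers summed to between 4.72 and 6.47 CPM, with 1 of 5 reaching 1 CPM.

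The genes that modify, fold, export, trim, cross-link and bind collagen were nearly constant in sum. Dcn, Lum, Ddr2 and Lox stand both in this list and in the fibroblast lists. Of 59 symbols listed 54 were in the files and 46 reached 1 CPM, and together they had 3231, 3338, 3384 and 3240 CPM in libraries 1 to 4. Chaperones and export factors summed to 1132 ± 42.7 CPM, led by Sparc, a collagen-binding glycoprotein, and by Serpinh1, the collagen chaperone HSP47. Proteins that bind fibrils summed to 898.5 ± 33.5 CPM, led by the small proteoglycan Bgn. Prolyl hydroxylase subunits and partners, which stabilise the triple helix, summed to 365 ± 9.70 CPM, led by P4hb. Lysyl hydroxylases and glycosyltransferases summed to 304 ± 8.45 CPM, led by Plod1. Cross-linking enzymes summed to 239 ± 15.4 CPM, led by Pxdn, the peroxidase that cross-links type IV collagen. Propeptide processing enzymes and enhancers summed to 183 ± 10.2 CPM, and collagen receptors to 177 ± 8.52 CPM.

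Single members of this list still differed between libraries. Serpinh1 had 247, 278, 331 and 231 CPM in libraries 1 to 4. Dcn, the proteoglycan decorin through which type XIV collagen binds fibrils, had 254, 180, 246 and 270.0 CPM. Tmem38b, an endoplasmic reticulum cation channel needed for collagen folding, had 106, 191, 148 and 97.9 CPM. Dcn was lowest in library 2, where Col14a1 was highest, and Tmem38b was highest in libraries 2 and 3. Of the 46 synthesis genes tested, 1 was called more variable (2.17%, against 0.445% of all genes), and this was Tmem38b at an adjusted p of 0.0493 by edgeR. The call ended with DESeq2's size factors, with limma, with a prior that was not robust, without library 1, without library 4, and in libraries 1 and 4 alone. At an unadjusted p of 0.05, 6 of 46 (13.0%) passed, against 6.00% of all genes. The median log2 variance ratio was -0.03 over these 46 genes, against 0.68 over the collagen chains.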

How the data were processed

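Polyadenylated RNA was sequenced in single-end reads without strand information, per the labels' protocols. The authors deposited raw counts per gene, 1 file a library. The submitters' processing notes name the build mm10 and the tools TopHat2 2.0.10, TopHat, Bowtie2, HTSeq, DESeq and edgeR, with no role for each. Which annotation was counted, and by which mode, is not given in the sources used here. The 5 closing rows that name no gene, 9.16 ± 0.145% of listed reads, were left out.

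Levels are CPM, also divided by the longest protein-coding transcript or by merged exons of GENCODE M21 (44 of 44 chains matched). RefSeq promoters matched 35 of 44 chains. Spread was tested with edgeR 4.0.16 in R 4.3.3 (quasi-likelihood, TMM, robust prior, mean of at least 1 CPM, Benjamini-Hochberg adjustment over 12358 genes) and checked on simulated counts. The tested statistic is each gene's residual variance in that fit, on 3 degrees of freedom, against that predicted for its level. The upper tail of an F distribution gave its p. Alternatives used limma 3.58.1, DESeq2 1.42.0, other scalings and filters, each library left out, and libraries 1 and 4 alone. Pair ratios were tested by exact sign-flip permutation. Intervals are exact Poisson limits (95%).

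The members, classes, pairs and lists were chosen with earlier results of these data known. Named were chains of at least 10 CPM, both chains of each pair, called genes, and leading members of the other lists. Other low chains, Postn, Gsn, Lum, Mgp, Acta2, Fn1, Lox, the atrial genes and the chains past an unadjusted p were named after their values were seen. 1 further marker list is not reported here.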

Additional observations from a re-analysis of the deposited data

Results flagged for a closer look

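In 4 of 50 chain levels, class sums and pair ratios, 1 library stood apart from the other 3 by Dixon's test at 95%; chance gives about 1 in 20. Library 3 was low for Col4a1, at 760.2 CPM, and with it for the summed basement membrane chains, at 1611 CPM. Library 3 also gave the lowest log2 count ratio of Col5a1 over Col5a2, at 1.06. Library 1 was low for the fibril-associated chain Col16a1, at 9.51 CPM. Library 3 had the fewest gene counts, 10523709.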

How the results depend on the processing

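Class shares and the ratio of classes cannot change when a library is rescaled as a whole. With 1 library left out, or in libraries 1 and 4 alone, they moved by less than their SD over libraries. The mean of any such subset has to do so, so this cannot show that they are stable. Basement membrane chains held from 57.4% to 58.3% with 1 library left out, and their ratio over fibrillar chains ran from 2.18 to 2.31. No pair ratio turned direction. For every pair but Col1a1 over Col1a2 this was fixed by 1 direction in all 4 libraries. Per kb of merged exon the shares were 60.5% for basement membrane, 21.3% for fibrillar and 18.2% for minor chains, and the ratio of basement membrane over fibrillar chains was 2.85. Merged exons also turned the log2 ratios of Col1a1 over Col1a2 to 0.86 and of Col5a3 over Col5a2 to 0.14, through the longer exon sets of Col1a2 and Col5a2. Per kb of longest coding transcript, an alternative chosen after seeing the data, basement membrane chains held 54.4% and minor chains 19.1%, with a ratio of 2.06. Type IV alone gave 52.5% and a ratio of 2.03, and minor chains without type VI gave 2.36%. Chains detected numbered 33 at a mean of 0.5 CPM, 25 at 2 CPM and 39 by a count in every library. Without Rn45s in the total, collagen took 0.344% of counts, and the mean CPM of 15 chains rose past their spread with it.

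With no filter on low counts, 4 of 43 collagen chains were called more variable, against 258 of all 17447 genes. They were Col14a1, Col3a1, Col6a3 and Col6a6, with an adjusted p from 3.40e-05 to 0.0489 by edgeR. DESeq2's dispersion outliers held 1 of 27 chains, against 129 of 12358 genes. With 1 library left out, from 0 to 1 chain was called, against from 39 to 69 of all genes. Over all alternatives the adjusted p of Col14a1 ran from 3.40e-05 to 0.984. Synthesis genes called numbered 4 with no filter, 0 with DESeq2's size factors, limma, the prior that was not robust or libraries 1 and 4 alone, and from 0 to 1 with 1 library left out. All genes called numbered 258 with no filter, 129 by DESeq2, 10 with the prior that was not robust, 6 in libraries 1 and 4 alone and from 39 to 69 with 1 library left out. The causes of these changes in calls were not tested. No paired analysis was possible because the labels give only 1 group. Depth limits chains under 1 CPM, whose counts reached at most 18 per library.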
